A study of Mus musculus with 2 samples.

Results

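Prostaglandins and thromboxane are short-lived lipid signals made from arachidonic acid. The cyclooxygenases, encoded by Ptgs1 and Ptgs2, turn arachidonic acid into prostaglandin H2, and terminal synthases then make prostaglandin E2, prostacyclin, prostaglandin D2 or thromboxane A2 from it. In an inflamed joint prostaglandin E2 acts on receptors such as those encoded by Ptger2 and Ptger4 and is known to sensitize nociceptors, and the enzyme encoded by Hpgd inactivates it. The 10 genes described here are the cyclooxygenases Ptgs1 and Ptgs2, the terminal synthases Ptges, Ptgis, Ptgds, Hpgds and Tbxas1, the receptors Ptger2 and Ptger4, and Hpgd. They were found by symbol among the 32285 genes counted, and each symbol occurred.

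The genes were measured by single-cell RNA sequencing (scRNA-seq) of the temporomandibular joint (TMJ) of C57BL/6 mice aged 8 to 10 weeks. One library came from wild-type (WT) mice and 1 from Prox1 mutant mice, and both groups had received complete Freund's adjuvant (CFA), an agent that inflames the joint. The study describes the mutants as Prox1+/-, heterozygous for the transcription factor that specifies lymphatic endothelium, and the mice as female. The number of mice behind each library is not given in the sources used here, and neither library came from an uninflamed joint. With 1 library per condition there is no replicate error and no p-value, and every interval given is a 95% interval that covers counting error within a library only.

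After cells with under 500 genes or at least 10% mitochondrial UMIs (unique molecular identifiers, 1 per captured transcript) had been removed, 4352 WT cells with 48366846 UMIs and 5757 mutant cells with 54330221 UMIs were left. The median depth was 6997 UMIs per WT cell and 4848 per mutant cell, and 4 barcodes occurred among the kept cells of both libraries. Prox1 stood at 11.6 CPM (counts per 1000000 UMIs) in the kept WT cells and at 5.80 CPM in the mutant cells. Cells were grouped into clusters without use of the prostaglandin genes, and clusters were named from marker genes, so a name such as neutrophils stands for neutrophil-like cells. There were 12 classes with at least 50 cells in each library, and in 11 of them at least 5 markers were raised 2-fold over the other cells in both libraries. In inflammatory macrophages 4 of the 6 markers were raised in WT cells and 5 in mutant cells. There were 18 clusters with at least 75% of their cells from 1 library after allowing for the number of cells in each. The largest, led by Igkc, Hba-a2 and Hba-a1 and left unnamed, had 7 WT and 632 mutant cells, and such clusters also formed part of the immature neutrophils, resident-type macrophages, erythroid cells and smooth muscle cells. The erythroid markers summed to 1267 CPM in the other WT cells and to 14163 CPM in the other mutant cells.

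The sequences before the start sites of Ptgs1, Ptgs2 and Tbxas1 are shown because Ptgs1 and Ptgs2 catalyse the same step and had different leading classes, and because Tbxas1 had the most classes past 2-fold between the libraries. The 250 bases before the RefSeq start are printed 5' to 3' on the strand of the gene, from GRCm38.p6. Capitals mark matches on either strand to the TATA box letters TATAAA, the GC box letters GGGCGG, the CCAAT box letters CCAAT, the E box letters CACGTG or the cyclic AMP response element half-site letters TGACGT.
Ptgs1, chr2:36230176-36230425, + strand: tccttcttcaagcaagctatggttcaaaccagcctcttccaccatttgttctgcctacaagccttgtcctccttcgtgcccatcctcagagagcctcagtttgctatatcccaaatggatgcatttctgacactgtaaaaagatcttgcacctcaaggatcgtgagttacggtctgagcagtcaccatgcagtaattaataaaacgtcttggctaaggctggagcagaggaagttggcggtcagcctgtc
Ptgs2, chr1:150099781-150100030, + strand: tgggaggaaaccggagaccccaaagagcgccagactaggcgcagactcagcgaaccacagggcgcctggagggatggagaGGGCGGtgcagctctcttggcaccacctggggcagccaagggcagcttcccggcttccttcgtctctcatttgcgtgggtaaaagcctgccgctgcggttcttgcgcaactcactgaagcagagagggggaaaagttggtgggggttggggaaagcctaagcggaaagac
Tbxas1, chr6:38918736-38918985, + strand: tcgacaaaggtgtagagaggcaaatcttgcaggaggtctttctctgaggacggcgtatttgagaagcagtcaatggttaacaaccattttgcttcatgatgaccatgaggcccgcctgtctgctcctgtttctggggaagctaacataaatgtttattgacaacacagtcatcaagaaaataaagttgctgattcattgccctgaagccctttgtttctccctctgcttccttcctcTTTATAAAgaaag

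The Ptgs1 window held none of these letters, and the Ptgs2 window held 1 GC box, 170 to 165 bases before the start. The Tbxas1 window held TATAAA, 11 to 6 bases before the start, overlapping its reverse form, and of the 9 members found in the RefSeq table it was the only member whose window held these letters. Over all 32851 promoters of that table, 12.4% held TATAAA, 32.7% held GGGCGG and 33.9% held CCAAT on either strand, and 6.02% held CACGTG and 6.47% TGACGT. GC content was 48.0% for Ptgs1, 61.6% for Ptgs2 and 43.6% for Tbxas1, against a median of 52.4% over all promoters. A match to these letters is a description of the sequence and not a measured binding site. The RefSeq start of Tbxas1 used here lies inside the gene as GENCODE annotates it, so the starts differ between these annotations.

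The first question was which cells of the inflamed TMJ expressed each gene. The plot of levels by class shows that, among the 12 compared classes, Ptgs2, Ptges, Hpgds, Tbxas1 and Ptger2 stood highest in macrophages or neutrophils, that Ptgis stood highest in mesenchymal cells, and that Ptgs1 was divided between endothelial cells, mesenchymal cells and immature neutrophils. Of the 10 genes, 6 had the same leading class in both libraries. The other 4 were Ptgs1, Ptgds, Tbxas1 and Ptger4.

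**Figure D1:**
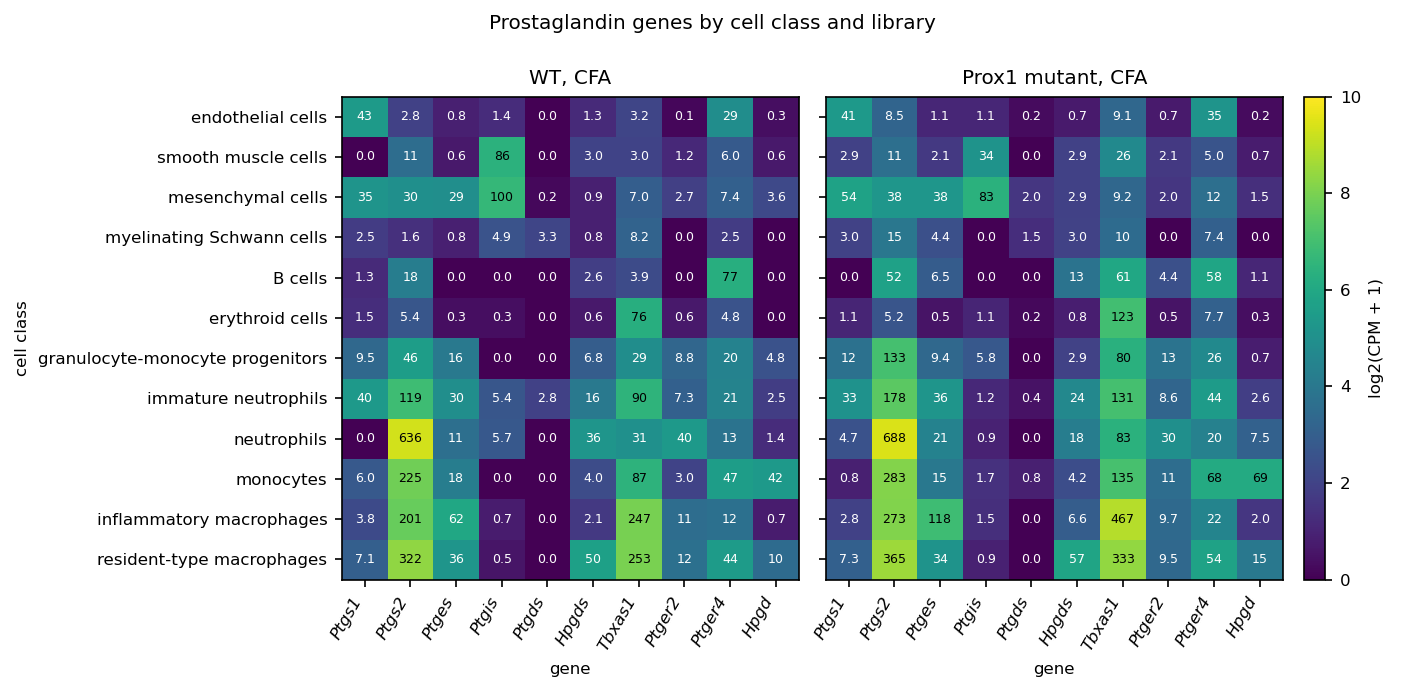
Level of each prostaglandin gene (columns) in the 12 compared cell classes (rows), for the WT library on the left and the Prox1 mutant library on the right. Numbers in the cells are CPM and colours are log2(CPM + 1). Of these classes neutrophils hold the most Ptgs2 in both libraries, with 636 and 688 CPM, while Ptgds is below 4 CPM in every class.

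Ptgs1 (ENSMUSG00000047250, chromosome 2, 36230426 to 36252272, + strand) encodes the cyclooxygenase that many tissues express at rest. Endothelial cells of WT held 306 of its UMIs and those of the mutant 187, which gave 43.2 CPM (38.5 to 48.3) and 40.6 CPM (35.0 to 46.8). Immature neutrophils stood at 40.2 CPM in WT cells and 33.2 CPM in mutant cells, and mesenchymal cells at 34.8 CPM and 53.8 CPM. The intervals of these 3 classes overlapped from one class to the next in WT, while in the mutant the mesenchymal interval (47.3 to 61.0) lay above that of endothelial cells. The next class was at 9.52 CPM in WT cells and at 12.3 CPM in mutant cells, apart from the leading 3 in both libraries. Mature neutrophils, which follow the immature cells in development, held 0 Ptgs1 UMIs in WT, which allows up to 4.29 CPM, and 5 UMIs or 4.71 CPM in the mutant. B cells, taken as a class that should lack the gene, held 1 UMI in WT cells and 0 in mutant cells.

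Endothelial Ptgs1 was spread unequally over 3 clusters. A cluster led by Ubd, Selp and Plvap, of which Selp encodes an adhesion receptor of inflamed venules, held Ptgs1 at 66.1 CPM (56.8 to 76.5) in WT, and in the mutant 74.3 CPM (61.9 to 88.4). The cluster led by Timp4, Gm12002 and Car4 held 36.3 CPM and 23.3 CPM, and the cluster led by Nebl, Sema3g and Gja5 held 16.0 CPM and 16.7 CPM. The first cluster therefore lay above the other two in both libraries, with intervals that did not overlap. Slco2a1, which encodes a prostaglandin uptake transporter, was also highest in the Selp cluster, with 274 CPM in WT cells and 158 CPM in mutant cells and at most 26.4 CPM in the other two. Ptger4, by contrast, was lowest in the Selp cluster. It stood at 41.98 CPM and 61.4 CPM in the Timp4 cluster, at 35.1 CPM and 29.0 CPM in the Nebl cluster, and at 12.6 CPM (8.69 to 17.5) and 11.1 CPM (6.69 to 17.4) in the Selp cluster. These clusters were formed without the 3 genes, which were among those left out of the clustering.

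**Figure D2:**
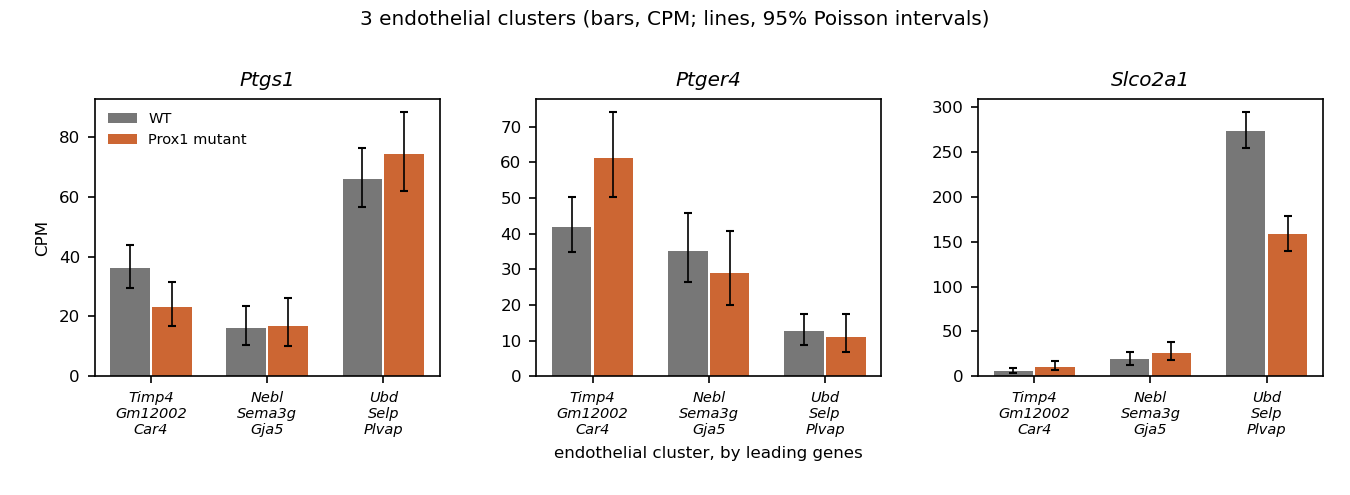
CPM of Ptgs1, Ptger4 and Slco2a1 in the 3 endothelial clusters, named by their leading genes, in WT (grey) and Prox1 mutant (orange) libraries. Bars are CPM and lines are exact Poisson 95% intervals. Ptgs1 and Slco2a1 are highest in the cluster led by Ubd, Selp and Plvap, and Ptger4 is lowest there.

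Within immature neutrophils Ptgs1 also varied by cluster. The cluster led by Camp, Ngp and Lcn2, genes of secondary neutrophil granules, held 54.9 CPM in WT cells and 50.5 CPM in mutant cells. The cluster led by Ccl8, Retnlg and Ngp held 22.4 CPM and 16.7 CPM. WT cells of the class lay mostly in the first cluster (130 of 178) and mutant cells mostly in the second (235 of 397), so values for the whole class mix the clusters in different shares. Markers of resident-type macrophages, among them Ccl8, summed to 1179 CPM in this class in WT and to 1513 CPM in the mutant, and their part in its values was not tested.

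Ptgs2 (ENSMUSG00000032487, chromosome 1, 150100031 to 150108227, + strand) encodes the cyclooxygenase that inflammation induces. Among the 12 compared classes it was highest in neutrophils, with 445 UMIs or 636 CPM (578 to 698) in WT, and in the mutant 730 UMIs or 688 CPM (639 to 740). Resident-type macrophages followed with 322 CPM and 365 CPM, then monocytes with 225 CPM and 283 CPM and inflammatory macrophages with 201 CPM and 273 CPM. The order of these 4 classes was the same in both libraries, and monocytes and inflammatory macrophages were the only neighbours among them whose intervals overlapped. Immature neutrophils stood lower, at 119 CPM and 178 CPM. Mesenchymal cells held 30.5 CPM and 37.5 CPM, and endothelial cells held 2.82 CPM and 8.46 CPM.

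Depth differs between these classes, so the share of cells with a Ptgs2 UMI was also taken after each cell had been thinned to 2000 UMIs. In neutrophils 57.4% of WT cells and 61.2% of mutant cells then held a UMI, and 65.2% and 74.3% before thinning, at median depths of 2897 and 4714 UMIs. The thinned share was 30.5% and 36.0% in resident-type macrophages, 26.2% and 36.7% in inflammatory macrophages and 23.4% and 31.8% in monocytes. B cells, with median depths of 4013 and 5030 UMIs, had thinned shares of 2.52% and 5.21% and unthinned shares of 2.72% and 9.92%, so all 4 classes lay well above this background. The plot of thinned shares shows Ptgs1 in few cells of any class, at most 8.47%, in immature neutrophils of WT.

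**Figure D3:**
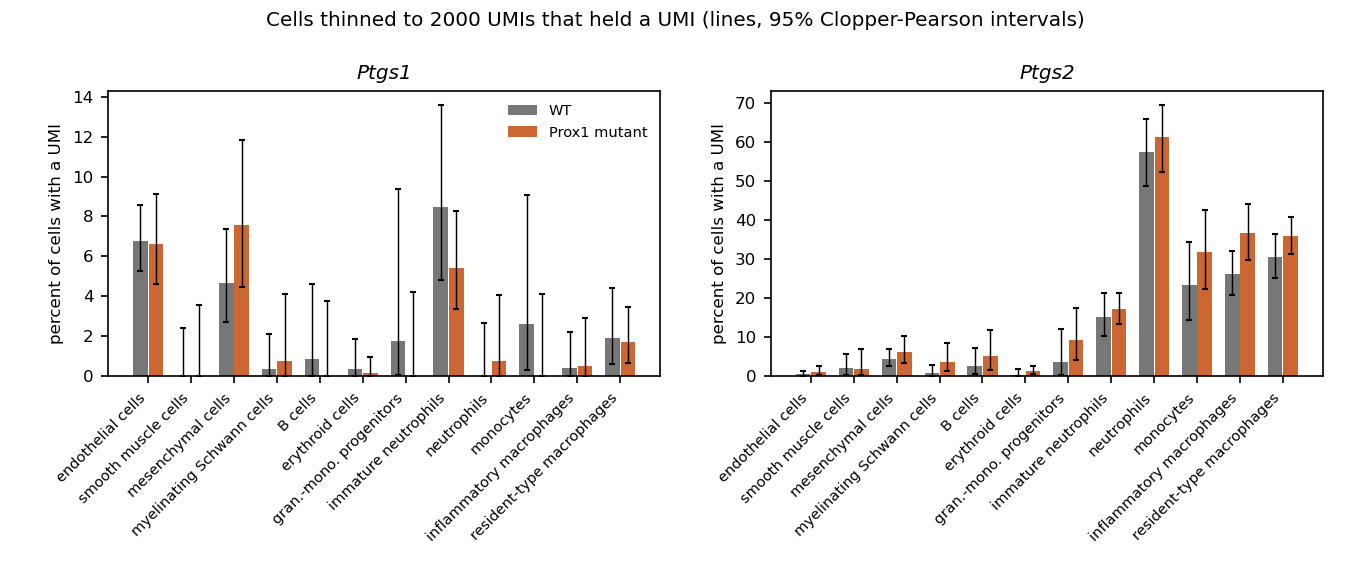
Percent of cells with a Ptgs1 UMI (left) and a Ptgs2 UMI (right) in each compared class after thinning to 2000 UMIs per cell, in WT (grey) and Prox1 mutant (orange) libraries. Lines are Clopper-Pearson 95% intervals. Ptgs2 is found in 57.4% and 61.2% of neutrophils, while Ptgs1 stays at or under 8.47% in every class.

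Neutrophils were fewer and shallower than macrophages, and most Ptgs2 UMIs lay outside them. The inflammatory and resident-type macrophages together held 64.3% of all Ptgs2 UMIs in WT cells and 55.3% in mutant cells, and immature and mature neutrophils held 17.5% and 21.0%. A further 200.9 CPM in WT cells and 629 CPM in mutant cells were found in an unnamed cluster led by Malt1, Cacna1d and Pid1. That cluster had 50 WT and 103 mutant cells, of which 42% and 44.7% held a Ptgs2 UMI. A cluster led by Prss34, Mcpt8 and Cpa3, with only 12 WT and 17 mutant cells, held 49 UMIs (337 CPM) and 125 UMIs (1445 CPM). The mast cell markers Mcpt4, Cma1 and Tpsb2 were at 0 in it in both libraries.

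**Figure D4:**
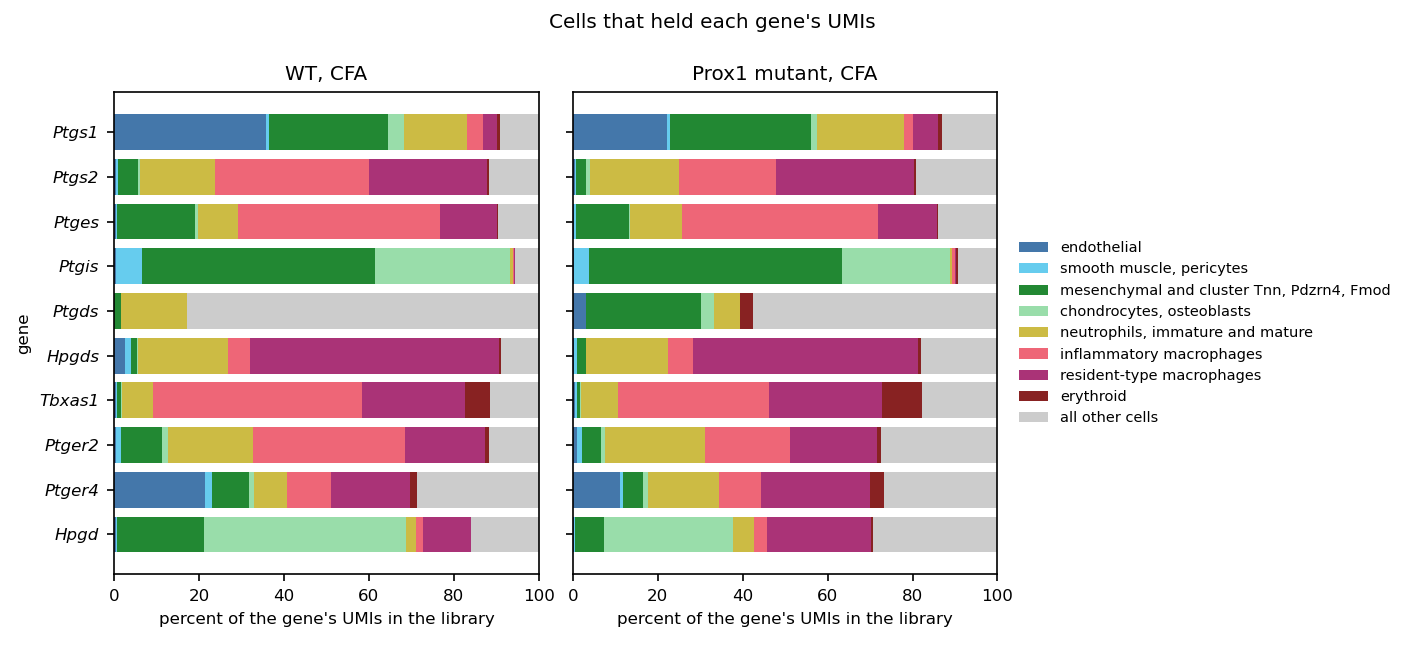
Percent of the UMIs of each prostaglandin gene that lay in groups of cells, for the WT library (left) and the Prox1 mutant library (right). Each bar adds to 100%, and grey holds all cells outside the groups named. Macrophages hold most UMIs of Ptgs2, Ptges, Hpgds and Tbxas1, and mesenchymal and skeletal cells hold most of Ptgis.

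Ptges (ENSMUSG00000050737, chromosome 2, 30889471 to 30929863, - strand) encodes the inducible microsomal synthase of prostaglandin E2, which acts on the product of the cyclooxygenases. Inflammatory macrophages led in both libraries, with 524 UMIs or 61.9 CPM (56.7 to 67.5) in WT, and in the mutant 765 UMIs or 118 CPM (110 to 127). In WT the classes that followed were resident-type macrophages (36.4 CPM), immature neutrophils (29.7 CPM) and mesenchymal cells (29.5 CPM). In the mutant they were mesenchymal cells (37.5 CPM), immature neutrophils (36.2 CPM) and resident-type macrophages (33.7 CPM). The intervals of these followers overlapped from one to the next in both libraries, and those of inflammatory macrophages lay above them. Neutrophils, the leading class of Ptgs2, held Ptges at 11.4 CPM (4.94 to 22.5) and 20.7 CPM (13.0 to 31.4). B cells held 0 UMIs in WT, which allows up to 3.86 CPM, and 6 UMIs in the mutant.

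Ptges and Ptgs2 were found together in single inflammatory macrophages. After thinning to 2000 UMIs, 16.7% (8.62 to 27.9) of the 66 WT cells with a Ptgs2 UMI also held a Ptges UMI, against 5.91% (2.99 to 10.3) of the 186 cells without one. In the mutant the shares were 31.9% (21.2 to 44.2) of 69 cells and 12.6% (7.23 to 19.9) of 119 cells. Inflammatory macrophages with Ptgs2 thus held Ptges more often in both libraries, with intervals that overlapped in WT and did not overlap in the mutant. The same was not seen for Tbxas1, which was held by 25.8% of the inflammatory macrophages with Ptgs2 and 40.9% of those without in WT, and by 43.5% and 41.2% in the mutant. In neutrophils only 1 of 78 WT cells and 3 of 82 mutant cells with Ptgs2 held a Ptges UMI.

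Ptgis (ENSMUSG00000017969, chromosome 2, 167191805 to 167240604, - strand) encodes prostacyclin synthase, and reads from it cannot be told apart here from 2 genes that overlap it on the other strand if strand was not used in counting. Mesenchymal cells held 584 UMIs or 100.01 CPM (92.1 to 108) in WT and 377 UMIs or 82.8 CPM (74.6 to 91.5) in the mutant. Smooth muscle cells held 142 UMIs or 85.7 CPM (72.2 to 101) and 48 UMIs or 34.2 CPM (25.3 to 45.4). The intervals of these classes overlapped in WT and not in the mutant, and the other 10 compared classes stood at 5.81 CPM or less. B cells held 0 Ptgis UMIs in both libraries.

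Skeletal cells, too few to compare, held Ptgis at higher levels. Chondrocytes stood at 625 CPM in 29 WT cells and 239.6 CPM in 106 mutant cells, and osteoblasts and osteocytes stood at 418 CPM in 28 WT cells and 540.4 CPM in 22 mutant cells. The chondrocytes had median depths of 32750 UMIs in WT and 3350.5 in the mutant. Their 7 markers summed to 48534 CPM and 6578 CPM, so WT and mutant chondrocytes were not alike in depth or marker level. One mutant osteoblast or osteocyte held 109 of the 292 UMIs of its class. An unnamed cluster led by Tnn, Pdzrn4 and Fmod, genes of connective tissue, stood at 342 CPM (319 to 366) in WT, and in the mutant 422 CPM (390 to 456). Together with mesenchymal cells these groups held 86.6% of all Ptgis UMIs in WT cells and 85.1% in mutant cells.

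Tbxas1 (ENSMUSG00000029925, chromosome 6, 38875404 to 39084585, + strand) encodes thromboxane A synthase. It was found mainly in macrophages, since the inflammatory and resident-type classes together held 73.3% of its UMIs in WT cells and 62.0% in mutant cells. Resident-type macrophages held 1028 UMIs or 253 CPM (238 to 269) in WT, and in the mutant 2280 UMIs or 333 CPM (319 to 347), and inflammatory macrophages held 2094 UMIs or 247 CPM (237 to 258) and 3026 UMIs or 467 CPM (451 to 484). The intervals of these classes overlapped in WT, whereas in the mutant inflammatory macrophages lay above. One inflammatory macrophage of the mutant held 219 of these UMIs. The unnamed cluster led by Malt1, Cacna1d and Pid1 exceeded both classes, with 568 CPM and 811 CPM. Another unnamed cluster, led by Igkc, Igha and Pf4, had 18 WT and 243 mutant cells. It held 1 Tbxas1 UMI in WT cells and 143 UMIs or 283 CPM (239 to 334) in mutant cells.

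Erythroid cells also held Tbxas1, at 76.5 CPM (67.4 to 86.5) in WT, and in the mutant 123 CPM (115 to 132), and thinned to 2000 UMIs 12.2% and 16.3% of their cells held a UMI, against 0.84% and 7.29% of B cells. Their macrophage markers stayed low, with the 7 markers of resident-type macrophages summing to 56.0 CPM and 47.6 CPM, against 6349 CPM and 5526 CPM in the macrophages themselves. Ptgs2 stood at 5.42 CPM and 5.22 CPM in erythroid cells. The Tbxas1 gene overlaps Hipk2, Gm42962 and 1700025N23Rik on the opposite strand, and whether strand and introns were used in counting is not stated. Erythroid cells could therefore not serve as a background for Tbxas1, and B cells were used in their place.

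Hpgds (ENSMUSG00000029919, chromosome 6, 65117293 to 65144908, - strand) encodes the prostaglandin D2 synthase of blood cells. Resident-type macrophages held 205 UMIs or 50.4 CPM (43.8 to 57.8) in WT and 388 UMIs or 56.6 CPM (51.1 to 62.5) in the mutant. In WT the interval of neutrophils, at 35.7 CPM (23.1 to 52.7), overlapped theirs, and in the mutant neutrophils stood at 17.9 CPM (10.8 to 28.0), with 14 of their 19 UMIs in 1 cell. Inflammatory macrophages held only 2.13 CPM and 6.64 CPM, so the macrophage classes lay apart in this gene in both libraries. B cells held 2.57 CPM in WT cells and 13.1 CPM in mutant cells.

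Ptgds (ENSMUSG00000015090, chromosome 2, 25466709 to 25470046, - strand), the lipocalin-type prostaglandin D2 synthase, had only 58 UMIs in all kept WT cells and 33 in all kept mutant cells. In WT, 38 of these lay in 12 of the 50 non-myelinating Schwann cells, at 62.1 CPM (43.9 to 85.2). The 14 non-myelinating Schwann cells of the mutant held 0 UMIs, where the limit of 3 UMIs is 30.1 CPM. Myelinating Schwann cells, by contrast, stood at 3.28 CPM and 1.48 CPM.

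The receptors Ptger2 and Ptger4 both raise cyclic AMP on binding prostaglandin E2. Ptger2 (ENSMUSG00000037759, chromosome 14, 44988195 to 45003820, + strand) was highest in neutrophils among the compared classes, with 28 UMIs or 40.0 CPM (26.6 to 57.8) in WT and 32 UMIs or 30.2 CPM (20.6 to 42.6) in the mutant. Resident-type macrophages followed in WT at 11.8 CPM, apart from neutrophils, and granulocyte-monocyte progenitors followed in the mutant at 13.1 CPM with an interval that overlapped theirs. Endothelial cells stood at 0.14 CPM and 0.65 CPM. The gene overlaps Gm17173 on the opposite strand.

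Ptger4 (ENSMUSG00000039942, chromosome 15, 5206661 to 5244187, - strand) was spread over lymphoid, myeloid and endothelial classes. B cells stood at 77.2 CPM (58.9 to 99.4) in WT, and in the mutant 57.8 CPM (43.3 to 75.6), monocytes at 46.8 CPM and 67.7 CPM, and resident-type macrophages at 44.0 CPM and 54.0 CPM. The intervals of these neighbours overlapped in both libraries, so no single class led. Endothelial cells held 29.2 CPM and 34.7 CPM, while inflammatory macrophages held 11.9 CPM and 22.1 CPM, below resident-type macrophages in both libraries. Erythroid, smooth muscle and myelinating Schwann cells were lowest, at 7.68 CPM or less. Ttc33 overlaps Ptger4 on the opposite strand.

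Hpgd (ENSMUSG00000031613, chromosome 8, 56294585 to 56321043, + strand) encodes the dehydrogenase that begins prostaglandin breakdown. Among the compared classes monocytes led with 42 UMIs or 41.8 CPM (30.2 to 56.6) in WT and 82 UMIs or 68.5 CPM (54.5 to 85.1) in the mutant. Resident-type macrophages followed at 10.3 CPM and 15.2 CPM, and inflammatory macrophages stood at 0.71 CPM and 2.01 CPM. The monocyte intervals lay apart from those of every other compared class. Osteoblasts and osteocytes exceeded monocytes, with 216 CPM (179 to 258) in WT, and in the mutant 217 CPM (179 to 260). That class had 28 WT and 22 mutant cells. Chondrocytes held 61.2 CPM and 21.0 CPM, in cells that differed between the libraries in depth and marker level, as given for Ptgis.

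Across the 24 points made by 12 classes in 2 libraries, the members' levels, as log2(CPM + 5), were compared with each other and with 8317 other genes. Points share their library, and the correlations are a description without a test. Ptgs2 and Ptger2 were most alike among the member pairs (Pearson's r = 0.90), followed by Ptgs2 with Ptges (r = 0.76) and with Hpgds (r = 0.73), whereas Ptgs1 and Ptgs2 had r = -0.08. The genes most like Ptgs2 were Cd80 (r = 0.98), Rbm47 (0.97) and Tlr2 (0.97), those most like Ptges were Mmp19 (0.96), Dram1 (0.93) and Saa3 (0.93), and those most like Ptgis were Barx1 (0.98), Shox2 (0.98) and Twist1 (0.97). For Tbxas1 they were Atp6v1e1 (0.89), Dpep2 (0.86) and Lin54 (0.85), for Ptger4 Trim14 (0.93), Crybg1 (0.90) and Slc7a7 (0.88), for Hpgd Amz1 (0.89), Klrk1 (0.87) and Sirpb1a (0.87), for Hpgds 4930430E12Rik (0.83), C5ar1 (0.82) and Mrc1 (0.82), and for Ptgs1 Lbp (0.81), Gja1 (0.77) and Kcnc2 (0.77). Ptger2, at no more than 40.0 CPM in any point, and Ptgds did not pass the minimum level of 50 CPM in 1 point set for the comparison with other genes. The member pairs were taken without that limit, so the r of Ptgs2 with Ptger2 rests on low levels of Ptger2.

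The second question was whether the genes differed between WT and mutant joints after CFA. A difference counts as past 2-fold when the gene had at least 50 UMIs over both libraries and its CPM differed at least 2-fold. Over all kept cells 0 of the 10 members were past 2-fold, where 4.69% of 16643 genes were past 2-fold higher, 5.32% lower and 10.0% in either direction. The members' log2 ratios of mutant over WT had a median of 0.28, against -0.08 over all genes, and 7 of 10 were above 0. In such sums a change in the number of cells of a type and a change within those cells cannot be told apart.

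Ptgs2 went from 96.9 CPM to 142 CPM over all kept cells, a log2 ratio of 0.55 (0.50 to 0.61), and Ptges went from 22.7 CPM to 30.6 CPM (0.43, 0.32 to 0.54). Tbxas1 went from 88.0 CPM to 158 CPM (0.84, 0.79 to 0.89) and Hpgds from 7.24 CPM to 13.5 CPM (0.90, 0.71 to 1.08). These 4 genes of myeloid cells were thus higher in the mutant library beyond counting error. Ptgis was lower, with 53.1 CPM and 31.1 CPM (-0.77, -0.86 to -0.68), and Ptgds was too, at 1.199 CPM and 0.61 CPM (-0.98, -1.64 to -0.34). The Ptgds ratio kept its sign in 12 of 13 alternatives in processing but was 0.60 when every cell had the same weight. Of its WT UMIs, 38 lay in non-myelinating Schwann cells, a class with 50 WT and 14 mutant cells. Ptgs1 went from 17.7 CPM to 15.4 CPM (-0.20) and Ptger4 from 19.99 CPM to 26.6 CPM (0.41). Ptger2, at 5.25 CPM and 5.83 CPM, and Hpgd, at 7.73 CPM and 7.82 CPM, had intervals that held 0.

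With the shares of the classes held at those of WT, the log2 ratio of Ptgis over all cells was -0.17 and that of Hpgds 0.44, each nearer to 0 than without this step. On the same scale Ptges stood at 0.62, Tbxas1 at 0.76, Ptgs2 at 0.44 and Ptgs1 at 0.07. Endothelial cells took 14.6% of UMIs in WT cells and 8.48% in mutant cells, and mesenchymal cells took 12.1% and 8.38%. Immature neutrophils, also among the leading classes of Ptgs1, took more in the mutant, with 6.54% and 9.26%.

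Within classes, 49 of the 120 pairs of a member and a class had enough UMIs. Of these, 9 were past 2-fold higher in the mutant and 1 was past 2-fold lower, where 3.74% of 92565 pairs of any gene and class were higher, 2.71% lower and 6.45% either. The ratio was above 0 in 38 of the 49, with a median of 0.40, against 55.0% and a median of 0.05 for all genes. Tbxas1 was above 0 in 10 of 10 classes, Ptgs2 in 9 of 10 and Ptger4 in 8 of 9. These genes thus gave most of the pairs above 0, each counted again in classes of the same libraries. Among the other members Hpgds was above 0 in 3 of 3 classes, Hpgd in 2 of 2 and Ptges in 3 of 4. Ptgs1 was in 2 of 5, Ptger2 in 1 of 4 and Ptgis in 0 of 2. The interval lay above 0 in 27 of the 49 pairs and below 0 in 2. Of the 27, Tbxas1 gave 9, Ptgs2 gave 7 and Ptger4 gave 4. These intervals cover counting error only. The share of all gene and class pairs with such an interval was not computed, so this count has no background. Without the clusters that came mostly from 1 library, 9 of 46 pairs were past 2-fold higher and 1 lower. With a filter of 1000 genes and 5% mitochondrial UMIs 4 were higher and 0 lower, with doublets removed 5 were higher and 1 lower, and with a filter of 200 genes and 20% mitochondrial UMIs 5 were higher and 4 lower. The shares of all genes past 2-fold were not computed under these alternatives, so their counts have no background. The 9 pairs came from 4 genes, since Tbxas1 gave 4 of them, Ptgs2 gave 3, and Hpgds and Ptger4 gave 1 each. Outside the compared classes Ptgs2 was past 2-fold higher in the unnamed cluster led by Malt1, Cacna1d and Pid1, where 5.60% of genes were. It went from 200.9 CPM (157 to 254) in 50 WT cells to 629 CPM (568 to 695) in 103 mutant cells. No member was past 2-fold in the other unnamed clusters with enough cells. The median ratio of all genes was itself 0.21 in inflammatory macrophages, 0.13 in monocytes and 0.10 in resident-type macrophages, and values relative to it are given for these classes.

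**Figure D5:**
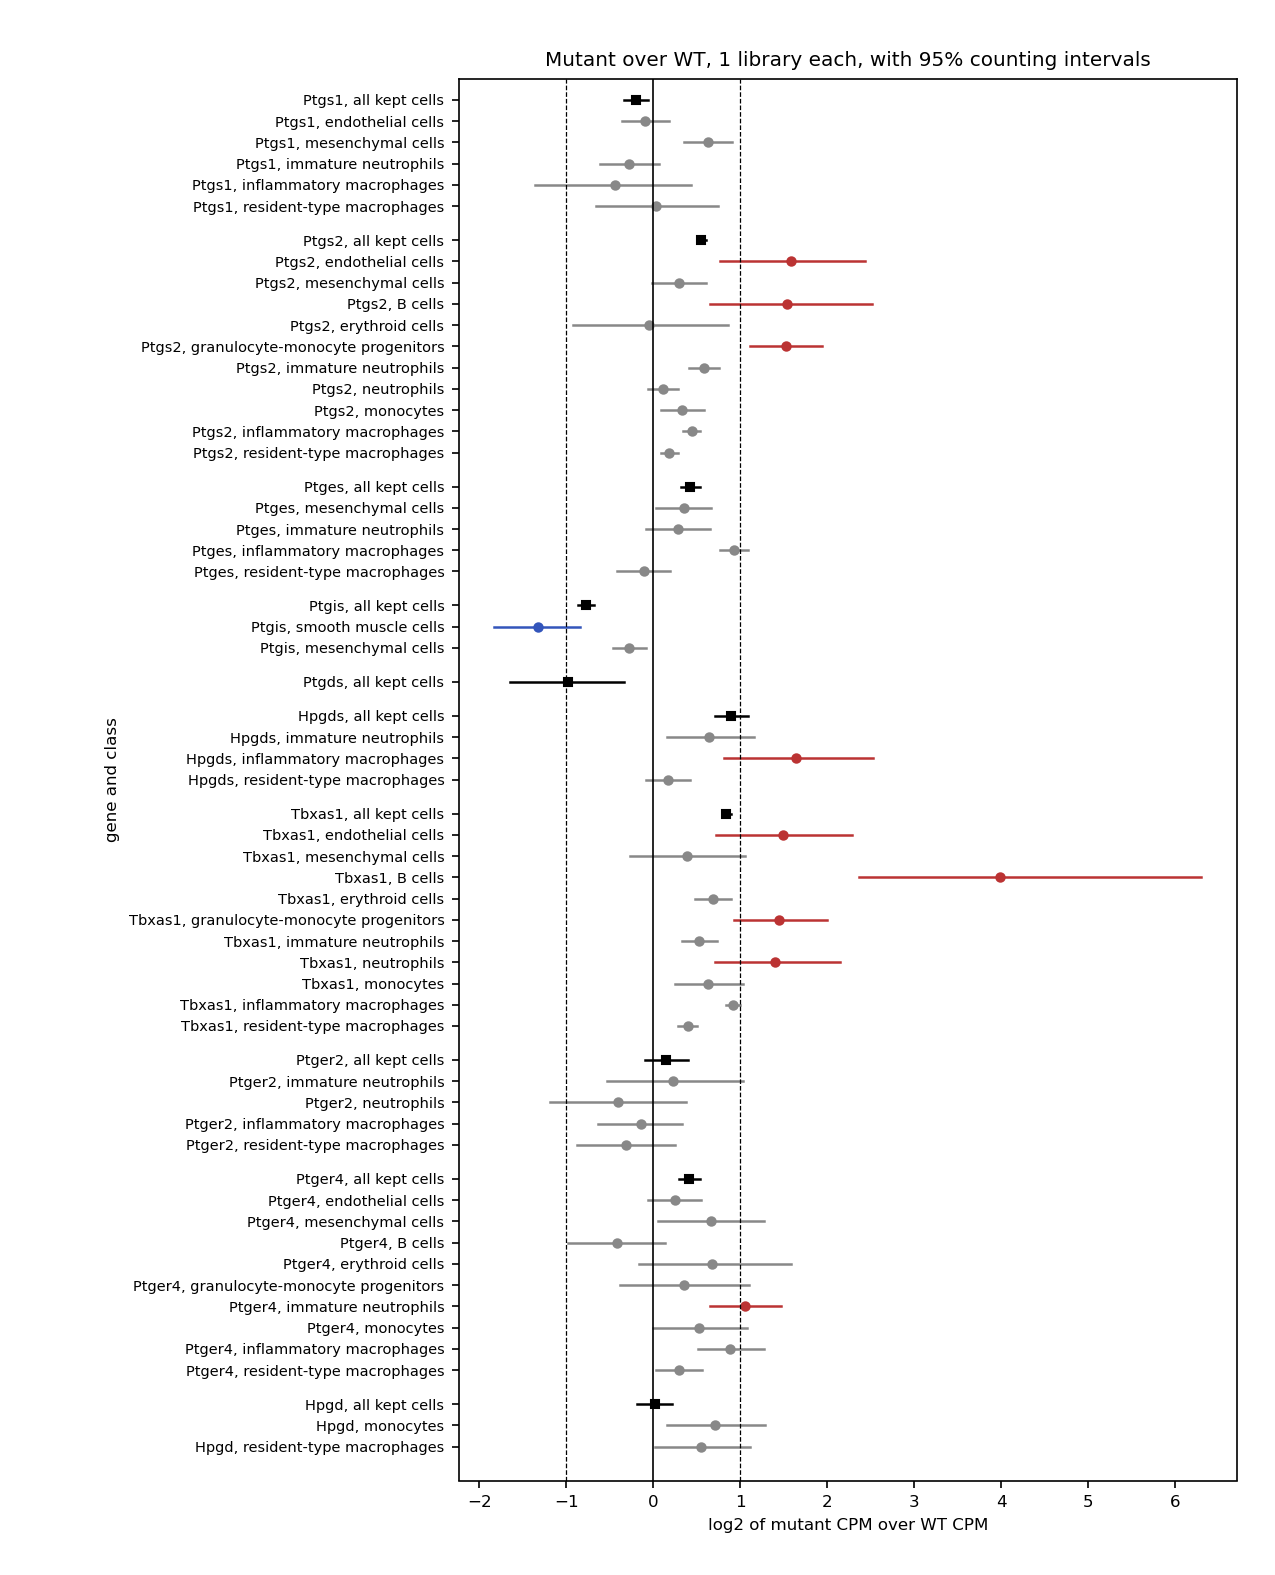
Log2 of mutant CPM over WT CPM (horizontal axis) for each member over all kept cells (black squares) and in each compared class with at least 50 UMIs (circles), with 95% intervals for counting error. Dashed lines mark 2-fold, and red and blue mark pairs past it. Tbxas1 lies above 0 in all 10 of its classes, with the largest ratio, 3.98, in B cells.

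In macrophages, which held most UMIs of Ptgs2, Ptges and Tbxas1, Tbxas1 went from 247 CPM to 467 CPM in the inflammatory class, a log2 ratio of 0.92, or 0.71 relative to all genes. Ptges went from 61.9 CPM to 118 CPM there (0.93, 0.77 to 1.09; 0.72 relative to all genes), and Ptger4 from 11.9 CPM to 22.1 CPM (0.89, 0.51 to 1.27; 0.68 relative). Ptgs2 differed less, from 201 CPM to 273 CPM (0.44; 0.23 relative). Hpgds was past 2-fold in this class, as were 5.15% of all genes, with 18 UMIs (2.13 CPM) in WT cells and 43 UMIs (6.64 CPM) in mutant cells (1.64, 0.82 to 2.52), but those UMIs lay in 11 and 14 cells, and the ratio was 0.66 when every cell had the same weight. Beside these, the 7 neutrophil markers summed to 941 CPM and 2157 CPM in this class with 6 of them higher in the mutant, the 6 erythroid markers to 104 CPM and 1454 CPM with 6 higher, and the 7 resident-type markers to 841 CPM and 838 CPM with 5 higher and Cd163 at 0 in the mutant. Their part in these ratios was not tested.

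In resident-type macrophages the ratios were smaller. Tbxas1 went from 253 CPM to 333 CPM (0.40; 0.30 relative to all genes), Ptgs2 from 322 CPM to 365 CPM (0.18; 0.08 relative), and Hpgds from 50.4 CPM to 56.6 CPM (0.17; 0.07 relative). Ptges stood at 36.4 CPM and 33.7 CPM (-0.11, -0.42 to 0.20), an interval that did not overlap the one for Ptges in inflammatory macrophages. This resident-type ratio kept its sign in only 8 of 13 alternatives in processing. It ran from -0.89 with classes set from marker UMIs to 0.40 with equal cell weights. The Ptges ratio of inflammatory macrophages kept its sign in 14 of 14, and was lowest, at 0.55, with coarser clusters. The resident-type Ptgs2 ratio kept its sign in 11 of 13 and ran from -0.696 with marker UMIs to 0.298 with equal weights. A shallow cluster led by Arg1, Egln3 and Ccl8 held 38 of the 279 WT cells and 196 of the 482 mutant cells. Nos2 was also among its leading genes, and the study uses Nos2 to mark M1-like and Ccl8 to mark M2-like macrophages. The class values therefore mix its clusters in different shares. Ptgs2 went from 186 CPM to 286 CPM in this cluster and Ptges from 56.3 CPM to 35.2 CPM. The other cluster was led by C1qa, Mrc1 and C1qc. There Ptgs2 went from 337 CPM to 381 CPM and Ptges from 34.2 CPM to 33.4 CPM. Whether the Arg1 cluster belongs with inflammatory macrophages was not tested. In the class the 7 neutrophil markers went from 631 CPM to 2232 CPM with 7 higher in the mutant, the 6 erythroid markers from 1525 CPM to 5879 CPM with 6 higher, and the 6 inflammatory macrophage markers from 2536 CPM to 2349 CPM with 2 higher. Their part in these ratios was not tested.

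In monocytes Hpgd went from 41.8 CPM to 68.5 CPM (0.71, 0.16 to 1.28; 0.58 relative) and Tbxas1 from 86.7 CPM to 135 CPM (0.63; 0.50 relative). The Hpgd ratio was 0.005 when classes were set from the marker UMIs of each cell and 1.56 when every cell had the same weight. It kept its sign in 9 of 9 alternatives in processing. The neutrophil markers in monocytes went from 2909 CPM to 5323 CPM with 4 of the 7 higher. The erythroid markers went from 89.7 CPM to 3580 CPM with 6 of the 6 higher. The resident-type macrophage markers went from 74.7 CPM to 129 CPM with 6 of the 7 higher and Folr2 and Cd163 at 0 in WT, and the inflammatory macrophage markers from 748 CPM to 909 CPM with 4 of the 6 higher. Their part was not tested.

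Neutrophils, with the most Ptgs2 per UMI of the compared classes, had a log2 ratio of 0.11 (-0.06 to 0.29) for that gene. Tbxas1 was past 2-fold in them, as were 5.76% of all genes, with 22 UMIs (31.4 CPM) in WT cells and 88 UMIs (82.9 CPM) in mutant cells, a ratio of 1.40 (0.71 to 2.14), and of 0.39 with a filter of 1000 genes and 5% mitochondrial UMIs. Markers of inflammatory macrophages summed to 6947 CPM and 5947 CPM in neutrophils, where the highest single marker held 6260 CPM and 5511 CPM. Acod1, which is on that list, was also among the leading genes of the neutrophil cluster. Markers of resident-type macrophages summed to 306 CPM and 326 CPM, while erythroid markers went from 3346 CPM to 6195 CPM. Their part was not tested. In immature neutrophils Ptger4 went from 21.2 CPM to 44.0 CPM (1.05, 0.65 to 1.47), in a class where 3.22% of all genes were past 2-fold higher. It was higher in the mutant in each of the 2 clusters of the class, with 16.8 CPM and 38.7 CPM in the Camp cluster and 26.6 CPM and 49.0 CPM in the Ccl8 cluster. Ptgs2 in this class had a ratio of 0.58, and -0.10 without the Ccl8 cluster, which came mostly from the mutant. In the Ccl8 cluster Ptgs2 went from 187 CPM (166 to 211) to 292 CPM (272 to 314). The median depth there was 21259.5 UMIs in 48 WT cells and 3773 in 235 mutant cells. In the Camp cluster Ptgs2 stood at 62.4 CPM (51.2 to 75.4) and 58.2 CPM (49.1 to 68.6). Erythroid markers went from 783 CPM to 13332 CPM in immature neutrophils with 6 of the 6 higher, resident-type macrophage markers from 1179 CPM to 1513 CPM with 3 of the 7 higher, and inflammatory macrophage markers from 1487 CPM to 1158 CPM with 3 of the 6 higher. Their part in the Ptger4 and Ptgs2 ratios was not tested.

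Granulocyte-monocyte progenitors showed Ptgs2 at 46.3 CPM and 133 CPM (1.52, 1.11 to 1.95) and Tbxas1 at 29.3 CPM and 79.9 CPM (1.45, 0.93 to 1.99), where 3.86% of all genes were past 2-fold higher. Both lost the 2-fold difference in some groupings of the cells, with 0.50 for Ptgs2 when the libraries were merged without integration and 0.92 for Tbxas1 with coarser clusters. Their median depth was 21734.5 UMIs in WT cells and 4828.5 in mutant cells, and erythroid markers stood at 89.1 CPM and 10110 CPM in these cells. Neutrophil markers went from 2641 CPM to 3745 CPM there and resident-type macrophage markers from 116 CPM to 155 CPM, while inflammatory macrophage markers went from 303 CPM to 211 CPM with 2 of the 6 higher. Their part was not tested.

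Ptgs2 and Tbxas1 were also past 2-fold in classes that held little of either, namely B cells, where 8.38% of all genes were past 2-fold higher, and endothelial cells, where 2.07% were. In B cells Ptgs2 had 14 UMIs in 4 WT cells and 48 UMIs in 12 mutant cells, at 18.0 CPM and 52.4 CPM (1.54, 0.66 to 2.51). Tbxas1 had 3 UMIs in 1 WT cell and 56 UMIs in 15 mutant cells, at 3.86 CPM and 61.1 CPM (3.98, 2.36 to 6.31), and 1 mutant cell held 18 of them. Endothelial cells held Ptgs2 at 2.82 CPM and 8.46 CPM (1.58, 0.77 to 2.44) and Tbxas1 at 3.25 CPM and 9.11 CPM (1.49, 0.72 to 2.29). One mutant endothelial cell held 15 of the 39 Ptgs2 UMIs. All 4 of these mutant levels lay below those of any macrophage class. Smooth muscle cells had too few UMIs for the ratio of either gene.

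Marker lists of other cells also summed to more in the mutant library in these classes. In B cells the 7 neutrophil markers summed to 278 CPM in WT cells and 2047 CPM in mutant cells, with Mmp8 and Cxcr2 at 0 in WT and no marker at 0 in the mutant. The 7 resident-type macrophage markers summed to 37.3 CPM and 99.3 CPM there, with Cd163 at 0 in both libraries and Folr2 at 0 in WT, the 6 inflammatory macrophage markers to 194 CPM and 651 CPM, and the 6 erythroid markers to 148 CPM and 10132 CPM, with Slc4a1 at 0 in WT. In endothelial cells the neutrophil markers went from 215 CPM to 431 CPM and the resident-type markers from 38.4 CPM to 60.5 CPM. The inflammatory macrophage markers went from 572 CPM to 864 CPM there, with 3 of the 6 higher in the mutant. The highest of these 6 held 487 CPM and 795 CPM, so most of that sum came from 1 marker in each library. The erythroid markers went from 608 CPM to 4748 CPM, with no marker at 0. The part of such transcripts in the Ptgs2 and Tbxas1 ratios was not tested.

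Mesenchymal cells, the leading compared class of Ptgis, had a log2 ratio of -0.27 (-0.46 to -0.08) for this gene. Ptgs1 went from 34.8 CPM to 53.8 CPM in them (0.63, 0.36 to 0.91), while in endothelial cells it stood at -0.09 (-0.36 to 0.18). The most UMIs of Ptgs1 in 1 mesenchymal cell were 31 in WT cells and 24 in mutant cells. In mesenchymal cells the neutrophil markers went from 117 CPM to 764 CPM with 7 of the 7 higher. The resident-type macrophage markers went from 95.7 CPM to 155 CPM with 6 of the 7 higher and Cd163 at 0 in both libraries. The inflammatory macrophage markers went from 670.4 CPM to 1265 CPM with 2 of the 6 higher, and the highest of them held 388 CPM and 984 CPM. The erythroid markers went from 1401 CPM to 2131 CPM with 5 of the 6 higher. Their part was not tested. Ptgis in smooth muscle cells was the 1 pair past 2-fold lower, from 85.7 CPM to 34.2 CPM (-1.32, -1.83 to -0.84), where 1.93% of all genes were past 2-fold lower. It rested on 27 WT and 25 mutant cells with a UMI, 1 of which held 27 of the 142 WT UMIs, and with the filter of 1000 genes and 5% mitochondrial UMIs the ratio was 0.08. A smooth muscle cluster with 1 WT and 33 mutant cells held 12 of the 48 mutant UMIs, at 192 CPM (98.99 to 335), against 26.9 CPM in the mutant cells of the main cluster, and the ratio without the cluster that came mostly from the mutant was -1.69. In smooth muscle cells the neutrophil markers went from 2776 CPM to 1438 CPM with 0 of the 7 higher. Erythroid markers went from 4147 CPM to 7027 CPM there with 6 of the 6 higher. The resident-type macrophage markers went from 36.8 CPM to 82.1 CPM with 6 of the 7 higher and Mrc1 and Folr2 at 0 in WT. The inflammatory macrophage markers went from 163 CPM to 87.1 CPM with 4 of the 6 higher. Their part was not tested. In the unnamed cluster led by Tnn, Pdzrn4 and Fmod, with the most Ptgis UMIs of any group in both libraries, the ratio was 0.30 (0.15 to 0.45).

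The other genes of the pathway served as a comparison. Of 25 such genes 22 had enough UMIs over all kept cells, and 0 were past 2-fold higher in the mutant and 1 past 2-fold lower, with a median log2 ratio of -0.08. Among all genes 4.69% were past 2-fold higher and 5.32% lower. Of the 7 genes that release arachidonic acid or restrain that step none was past 2-fold, from -0.40 for Pla2g2e to 0.40 for Pla2g2d. Pla2g4a, the cytosolic phospholipase that supplies the cyclooxygenases, stood at 51.3 CPM and 55.9 CPM, and Anxa1, which encodes an inhibitor of phospholipase activity, at 448 CPM and 356 CPM. Mgll, whose lipase frees arachidonic acid from an endocannabinoid, stood at 134 CPM and 167 CPM and was highest in endothelial cells, at 541 CPM and 627 CPM.

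Of 6 further synthases and reductases 5 were measured, with ratios from -0.34 for Akr1b3 to 0.11 for Ptges2. Ptges3, a cochaperone with prostaglandin E synthase activity, stood at 156 CPM and 149.7 CPM. Of the 7 other prostanoid receptors 5 were measured and none was past 2-fold. Ptgir, the prostacyclin receptor, went from 5.79 CPM to 8.69 CPM (0.59) and was highest in inflammatory macrophages, at 13.6 CPM and 26.6 CPM. Ptger3 was highest in smooth muscle cells, at 19.3 CPM in both libraries, and Ptgfr, the prostaglandin F receptor, in mesenchymal cells, at 57.2 CPM and 43.7 CPM.

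Of the 5 genes for transport and breakdown, Slco2a1 was the 1 gene past 2-fold over all cells, from 20.3 CPM to 9.48 CPM (-1.10). With the class shares held at those of WT it was not past 2-fold. It was highest in endothelial cells, where it went from 111 CPM to 69.4 CPM (-0.68, -0.87 to -0.49), and 742 of its 980 WT UMIs and 271 of its 515 mutant UMIs lay in the Selp cluster. Abcc4, which encodes a prostaglandin export pump, stood at 84.4 CPM and 86.2 CPM. Ptgr1, a reductase of the breakdown route, went from 60.3 CPM to 38.3 CPM (-0.65). Within the 12 classes 114 pairs of the 25 pathway genes were measured, of which 2 were past 2-fold higher and 2 lower. Of all gene and class pairs 3.74% were higher and 2.71% lower. The 114 ratios had a median of -0.05, and 52 were above 0.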

How the data were processed

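Cells of the TMJ from WT and Prox1 mutant mice given CFA were profiled by droplet scRNA-seq, with 1 library per condition. The deposited matrices hold raw UMI counts per gene and barcode, which the authors made with Cell Ranger (version 7.0.1) on mm10. Use of intronic reads, use of strand and removal of doublets are not given in the sources used here, and these sources disagree on the kit version and the enzymes. The total was 53517206 UMIs over 5709 WT barcodes and 62446987 over 7846 mutant barcodes.

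Cells that had 500 genes or more and less than 10% mitochondrial UMIs were normalized with SCTransform (sctransform 0.4.2), integrated by anchors on 3000 features and clustered at resolution 1.5 on 200 principal components in Seurat 5.3.0 (R 4.3.3), without the member and pathway genes. Of 45 clusters, 31 were named when at least 3 fixed markers were raised, and 14 stayed unnamed. Further naming rules were set after the clusters had been seen. Scrublet in scanpy 1.11.5 called 0 doublets automatically in both libraries, so 239 WT and 462 mutant barcodes were removed only as an alternative. Counts were summed per class and library and divided by all UMIs of the class to give CPM. Poisson, Clopper-Pearson and conditional binomial 95% intervals came from scipy 1.17.1 (Python 3.11.15) and cover counting error only. A gene at 0 was given the limit of 3 UMIs.

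The text names the 10 members, the 25 other pathway genes by list, and for each member the 3 genes with the highest Pearson's r among those with enough UMIs. Members and lists were chosen with earlier results of these data known. The steps were tested on simulated data. Gene positions come from GENCODE M21 and promoters from RefSeq, both on GRCm38. Prxl2b was listed under an older name, Fam213b.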

Additional observations from a re-analysis of the deposited data

Results flagged for a closer look

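Some levels in groups outside the comparison, either unnamed clusters or classes with under 50 cells in a library, exceeded those of all 12 compared classes of the same library. Each lay above the limit of 3 UMIs, and no uninflamed library was at hand to set a background. Ptgs2 stood at 1445 CPM in the 17 mutant cells of a cluster led by Prss34, Mcpt8 and Cpa3. Ptgis stood at 625 CPM in WT chondrocytes and 239.6 CPM in those of the mutant, at 418 CPM and 540.4 CPM in osteoblasts and osteocytes, and at 342 CPM and 422 CPM in the cluster led by Tnn, Pdzrn4 and Fmod. WT and mutant chondrocytes differed in depth and marker level, as given above. Ptgds stood at 62.1 CPM in WT non-myelinating Schwann cells. Tbxas1 stood at 568 CPM and 811 CPM in the cluster led by Malt1, Cacna1d and Pid1. Hpgd stood at 61.2 CPM in WT chondrocytes and at 216 CPM and 217 CPM in WT and mutant osteoblasts and osteocytes.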

How the results depend on the processing

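No paired analysis was possible because each condition had 1 library. Against 10 pairs of a member and a class past 2-fold, 4 (4 higher, 0 lower) of 42 were past it with a filter of 1000 genes and 5% mitochondrial UMIs, 6 (5 higher, 1 lower) of 46 with doublets removed, and 2 (2 higher, 0 lower) of 25 with at least 200 UMIs, where fewer pairs were tested. With a filter of 200 genes and 20% mitochondrial UMIs the count was 9, with 5 higher and 4 lower. The shares of all genes past 2-fold were computed for the main setting only. Ptgis in smooth muscle cells reversed to 0.079 under the filter of 1000 genes and 5%, and the cause was not tested. Over all cells 1 member, Tbxas1, was past 2-fold (1.29) when every cell had the same weight, with a pathway gene higher and none lower. The pathway genes past 2-fold were 2 with at least 20 UMIs and 0 with the class shares held at those of WT. Over 15 alternatives 655 log2 ratios stayed within the counting interval of the reported value, 95 moved outside it and 1 reversed, where reversed means that a value past 2-fold changed sign, and a change of sign within 2-fold is counted with the others. Leaving out the clusters mostly of 1 library was chosen after seeing the data. Depth limits Ptgds, with 58 and 33 UMIs in all.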
